A study of Rattus norvegicus with 10 samples.

Results

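The DNA replication and G1/S genes are 44 genes that encode the machinery loading, opening and copying replication origins, with the cyclin, kinase and E2F genes that open the S phase. They were chosen by name, with earlier results of these data known. Each was read from the probe set whose annotation gives its symbol alone. Where a gene has several, the brightest over the 10 arrays was taken. Of the 44, 41 were measured in this way, among 14217 genes with a symbol and 31042 probe sets tested. Cdc6 and Gins2 had no annotated probe set, and Rrm2 appeared only in 2 probe sets shared with Rrm2l1.

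RNA came from lens explants of 3-day-old rats, which are pieces of lens capsule carrying the epithelial cells, with 6 explants per assay. All were first held overnight in 5 ng/mL FGF2, which gives the 0 hr reference, and were then moved to 100 ng/mL FGF2 for 2, 4, 12, or 24 hr, and each time point has 2 arrays from different cultures. The study asked which transcripts follow the high dose as lens cells leave the cell cycle and become fiber cells, with 2 and 4 hr as its early phase and 12 and 24 hr as its late phase. No arrays of explants kept at 5 ng/mL FGF2 for the same hours were among the 10, so that dose cannot be told apart from time in culture. All explants are primary cultures without a genetic change, strain and sex are not given in the sources used here, and p-values measure the spread between 2 cultures per time point.

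Replication is licensed in G1, when the origin recognition complex, Cdc6 and Cdt1 load the ring-shaped MCM2-7 helicase onto DNA. At the start of S phase cyclin E with Cdk2 helps to turn the loaded helicase into an active one by adding Cdc45 and the GINS complex, and the polymerases, the PCNA clamp and its loader then copy both strands. Many of these genes are driven by E2F factors and are silenced when cells stop dividing. In the lens, epithelial cells divide at a low dose of FGF2, and a high dose is the classical cue for leaving the cycle and forming fibers.

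Promoter sequences are shown for the MCM2-7 family, the helicase genes on which much of the text turns, and for Gins1 and Pole as examples from the rest of the replication machinery, because E2F letters are a feature many of these genes are known to share. The examples were chosen after their values were seen. RefSeq promoters (build GRCr8, 250 bases before to 50 bases after the start given there, on the strand of the gene) were present for 36 of the 44 genes. The E2F letters searched on both strands were TTTGGCGC, TTTCGCGC, TTTCCCGC and TTTGCCGC, and matches on opposite strands may overlap. They occurred in 14 of the 36 promoters (38.9%), against 2.95% of 19005 protein-coding promoters of the same length. All 5 MCM2-7 promoters with an entry held a match, and Mcm4 had no entry. The windows below keep 25 bases on each side of the matches where the entry allows and stop 30 bases after the start, with the E2F letters in capitals.
Mcm2: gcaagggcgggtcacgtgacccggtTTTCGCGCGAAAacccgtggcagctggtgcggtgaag
Mcm3: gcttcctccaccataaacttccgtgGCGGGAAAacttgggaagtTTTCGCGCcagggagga
Mcm5: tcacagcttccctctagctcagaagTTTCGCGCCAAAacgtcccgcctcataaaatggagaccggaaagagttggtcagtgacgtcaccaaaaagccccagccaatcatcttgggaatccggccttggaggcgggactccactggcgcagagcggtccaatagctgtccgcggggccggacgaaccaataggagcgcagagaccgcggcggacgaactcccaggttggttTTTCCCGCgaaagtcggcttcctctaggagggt
Mcm6: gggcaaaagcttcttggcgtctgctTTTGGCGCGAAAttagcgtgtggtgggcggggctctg
Mcm7: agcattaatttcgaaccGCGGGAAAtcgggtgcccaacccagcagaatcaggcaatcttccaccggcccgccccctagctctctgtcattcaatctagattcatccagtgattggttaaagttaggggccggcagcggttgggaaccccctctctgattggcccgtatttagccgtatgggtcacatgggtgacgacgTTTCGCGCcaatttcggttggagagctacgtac
Gins1: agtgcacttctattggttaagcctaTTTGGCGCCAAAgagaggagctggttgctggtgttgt
Pole: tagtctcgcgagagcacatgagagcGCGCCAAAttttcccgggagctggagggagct
The Mcm2 window lies at chr4:122918072-122918133 (minus strand), that of Mcm3 at chr9:30733717-30733777 (minus), that of Mcm5 at chr19:13488575-13488837 (plus) and that of Mcm6 at chr13:42404455-42404516 (minus). The Mcm7 window lies at chr12:22163198-22163428 (minus), that of Gins1 at chr3:160184870-160184931 (plus) and that of Pole at chr12:52053633-52053689 (minus). In Mcm2, Mcm6 and Gins1 the capitals are a pair of matches on opposite strands that overlap, and so is the upstream match of Mcm5, while Mcm3 and Mcm7 hold separate matches. Counted from the start with no position 0, the matches lie at -14 to -3 in Mcm2, at -25 to -14 in Gins1 and at -2 to 6 in Pole.

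Of the 8 lens markers, the crystallin genes Cryaa and Cryab lay at percentile 100 of mean intensity over all probe sets, Cdh1, Pax6 and Prox1 at 99.5, 99.4 and 99.2, Foxe3 at 83.9, and the fiber genes Mip and Bfsp1 at 61.5 and 59.9. They summed to 65700 to 72380 intensity units per array, mostly from the brightest, and 1, 3, 4 and 3 of the 8 were called lower than at 0 hr at 2, 4, 12 and 24 hr, with none higher. The 6 macrophage, 4 pigment cell and 3 neural retina markers summed to at most 322.2, 156.3 and 108.1. The 4 mesenchyme markers summed to 10290 to 10720 at 0 hr and 10070 to 11160 from 2 to 12 hr. At 24 hr they summed to 8028 to 9405. Almost all of each sum came from Pdgfra (percentile 99.6). Dcn, Col1a1 and Lum lay at percentiles 56.7, 43.7 and 12.5, and none of the 4 was called against 0 hr. The 3 endothelium markers measured summed to 1058 to 1378 at 0 hr, 1342 to 1624 at 2 hr and 1080 to 1194 at 4 hr, mostly from Tek. Pecam1 lay at percentile 15.6. At 12 hr the 3 summed to 879 to 956.1 and at 24 hr to 718.6 to 768.1, with Kdr brighter than Tek. Against this fall of the sum, Kdr went from 7.83 and 8.20 at 0 hr to 9.32 and 9.13 at 12 hr in log2 units. The 2 erythroid markers measured summed to 2129 to 2167 at 0 hr, 1997 to 3586 at 2 hr and 2256 to 2398 at 4 hr, against 1393 to 1524 at 12 hr and 1292 to 1468 at 24 hr, mostly from Hbb. The summed endothelium and erythroid lists at 12 and 24 hr, and the mesenchyme list at 24 hr, thus lay below 0 hr when replication genes did, and their part in those results was not tested. In the array names, the arrays of 12 and 24 hr carry neighbouring serial numbers, and those of 0 hr and of 2 and 4 hr carry numbers apart from these and from each other. Whether the numbers mark separate runs is not given in the sources used here, and number group and time cannot be told apart except between 2 and 4 hr and between 12 and 24 hr.

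Replication genes were lower at 12 and 24 hr than at 0 hr, and at 2 and 4 hr few or none were called. At 12 hr 14 of the 41 measured genes were called lower (limma, adjusted p under 0.05 over all probe sets) and none higher, against 11.9% of all genes called lower and 11.7% called higher. At 24 hr 16 were called lower and none higher, against 12.4% and 12.2% of all genes. All 14 genes called at 12 hr were called at 24 hr too, where Mcm3 and Rpa1 joined them; these comparisons use the same 0 hr arrays. The median log2 change of the 41 genes was -0.46 at 12 hr and -0.54 at 24 hr, beside 0.02 and 0.03 over all genes. In these bulk samples fewer dividing cells and less RNA per cell cannot be told apart.

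The 2 arrays of 12 hr lay below both 0 hr arrays for 35 of the 41 genes, against 33.1% of all genes, and above them for 4, against 37.1%. At 24 hr they lay below for 36, against 31.2%, and above for 3, against 38.7%. The genes above at 12 hr were Gins4, Pold2, Rpa2 and Ccne1, and at 24 hr Gins4, Pold2 and Ccne1. None of these was called, and at 24 hr their log2 changes were 0.10, 0.22 and 0.19.

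**Figure D1:**
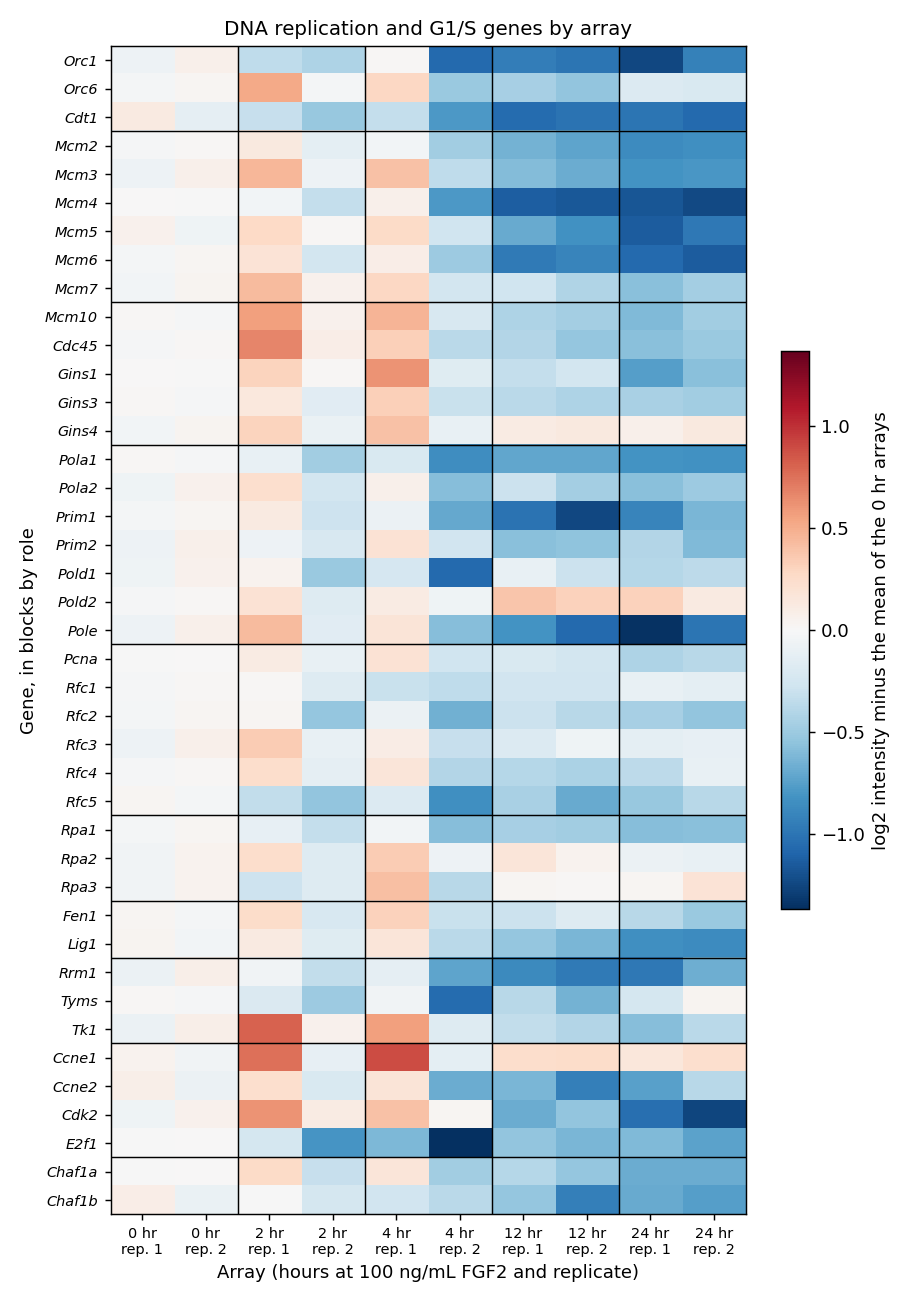
Log2 intensity minus the mean of the 0 hr arrays (colour scale) for the 41 measured genes (rows, in blocks by role) on each of the 10 arrays (columns, hours at 100 ng/mL FGF2 and replicate). The 12 and 24 hr columns are blue for 36 and 37 of the 41 genes by the mean of their arrays, and at 2 and 4 hr replicate 1 is redder than replicate 2 for 40 and 41 genes.

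The counts at 12 and 24 hr changed with the arrays and terms used in the fit, and the cause was not tested. A fit without the 2 and 4 hr arrays, chosen after seeing the data, called 31 genes lower and 1 higher (Pold2, log2 change 0.35, adjusted p = 0.0277) at 12 hr, against 16.1% and 15.8% of all genes, and 31 lower and none higher at 24 hr, against 16.5% and 16.7%. The 14 and 16 genes of the fit to all arrays were among them. The log2 5'/3' ratio of the Actb control probes was also tried as a covariate. With it 19 genes were called lower and 2 higher (Pold2 and Ccne1) at 12 hr. At 24 hr it gave 6 lower and 3 higher (Orc6, Gins4 and Ccne1). For this fit and the fits below that leave out 1 array, the share of all genes called was not computed. At 12 hr the count was 2 without 0 hr replicate 1, 2 without 0 hr replicate 2, 3 without 12 hr replicate 1 and 1 (Cdt1) without 12 hr replicate 2. At 24 hr it was 6 and 8 without 0 hr replicates 1 and 2, 8 and 9 without 24 hr replicates 1 and 2, and 25 without either 4 hr array. Cdt1 kept its call under each of the 24 alternatives at both times, and Mcm2, Mcm4, Mcm5, Mcm6 and Cdk2 kept theirs at 24 hr.

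**Figure D2:**
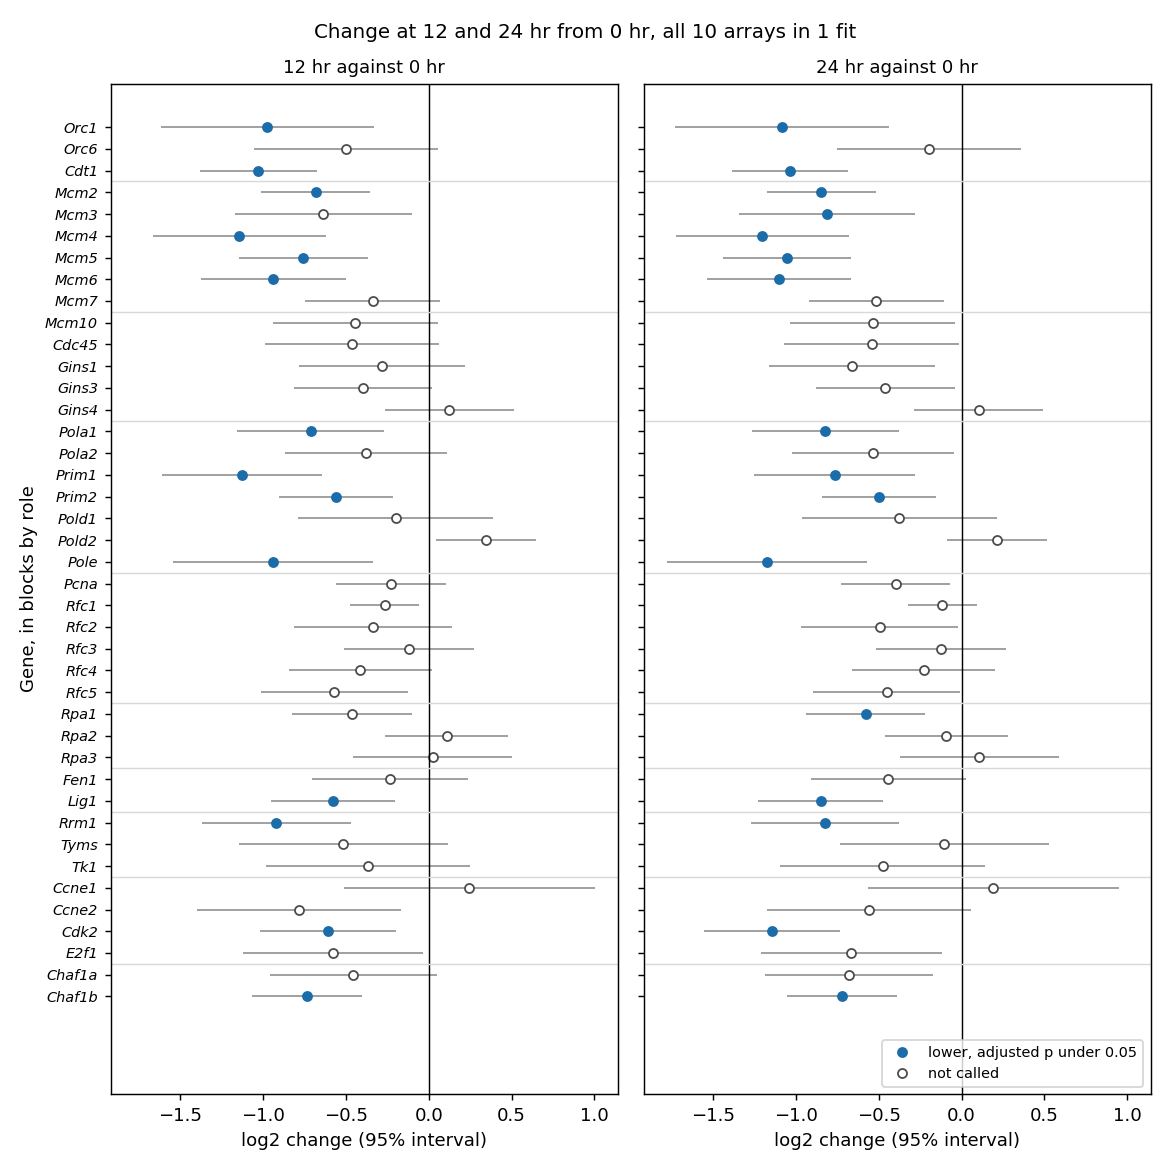
Log2 change at 12 hr (left) and 24 hr (right) from 0 hr for the 41 genes, with 95% intervals from the limma fit to all 10 arrays (2 per time point); filled points were called lower. The filled points number 14 and 16, and the points right of 0 are open.

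At the origin, Cdt1, which brings the MCM helicase to the origin recognition complex, fell at 4, 12 and 24 hr. Its log2 intensity was 9.58 and 9.34 at 0 hr, 9.14 and 8.94 at 2 hr, 9.14 and 8.68 at 4 hr, 8.41 and 8.46 at 12 hr, and 8.46 and 8.40 at 24 hr. Every later array lay below both 0 hr arrays. The log2 change was -0.55 at 4 hr (SE 0.15, n = 2 arrays at each time, limma adjusted p = 0.0317), -1.03 at 12 hr (adjusted p = 0.0022) and -1.03 at 24 hr (adjusted p = 0.0021). Orc1, the ATPase subunit of the recognition complex that cells make and destroy with the cycle, read 6.21 and 6.35 at 0 hr, 5.94 and 5.86 at 2 hr, 6.30 and 5.22 at 4 hr, 5.33 and 5.28 at 12 hr, and 5.04 and 5.36 at 24 hr. Its 4 hr arrays were 1.08 apart and spanned most of the range between 0 and 24 hr, and the other pairs differed by at most 0.31. Orc1 fell by 0.97 at 12 hr and by 1.08 at 24 hr on the log2 scale (SE 0.28, adjusted p = 0.0437 and 0.0273). Orc6, a small subunit of the same complex, stood at -0.50 and -0.20 (adjusted p = 0.21 and 0.65), and its 2 further probe sets were not called at either time.

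The MCM2-7 subunits, which form the helicase ring, had 4 calls at 12 hr, as many as the 7 polymerase genes, and 5 at 24 hr, the most of the 10 roles. At 12 hr 4 of the 6 fell (Mcm2, Mcm4, Mcm5 and Mcm6) and at 24 hr 5 of the 6, with Mcm3 added. Mcm7 stood at -0.34 and -0.52 (adjusted p = 0.25 and 0.0778). The median log2 change of the 6 was 0.07 and -0.11 in the early phase (2 and 4 hr) and -0.72 and -0.95 in the late phase (12 and 24 hr).

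Mcm4 had the largest fall of the 41 genes at both late times. It read 10.44 and 10.42 at 0 hr, 10.39 and 10.11 at 2 hr, 10.50 and 9.65 at 4 hr, 9.31 and 9.27 at 12 hr, and 9.26 and 9.20 at 24 hr. All 4 late arrays lay below every earlier array, and the lowest of those was 4 hr replicate 2. The log2 change was -1.14 at 12 hr and -1.20 at 24 hr (SE 0.23, adjusted p = 0.0088 and 0.0068), a 2.21-fold and 2.30-fold lower level.

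Mcm6 read 10.52 and 10.58 at 0 hr, 10.73 and 10.30 at 2 hr, 10.64 and 10.06 at 4 hr, 9.58 and 9.65 at 12 hr, and 9.48 and 9.41 at 24 hr, with log2 changes of -0.94 and -1.10 at the late times (SE 0.19, adjusted p = 0.0097 and 0.0045). Mcm5 read 9.17 and 9.06 at 0 hr, 9.38 and 9.13 at 2 hr, 9.37 and 8.84 at 4 hr, 8.43 and 8.29 at 12 hr, and 7.98 and 8.14 at 24 hr, with changes of -0.76 and -1.05 (SE 0.17, adjusted p = 0.0150 and 0.0031). In each the late arrays lay below all 6 earlier arrays, and the 24 hr arrays below the 12 hr arrays.

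Mcm2 read 10.22 and 10.24 at 0 hr, 10.36 and 10.10 at 2 hr, 10.20 and 9.76 at 4 hr, 9.59 and 9.51 at 12 hr, and 9.37 and 9.40 at 24 hr, with changes of -0.68 and -0.85 (SE 0.14, adjusted p = 0.0114 and 0.0041). Mcm3 read 9.34 and 9.47 at 0 hr, 9.86 and 9.33 at 2 hr, 9.80 and 9.06 at 4 hr, 8.82 and 8.72 at 12 hr, and 8.58 and 8.61 at 24 hr, with changes of -0.64 (adjusted p = 0.0990) and -0.81 (SE 0.23, adjusted p = 0.0402). Mcm7 read 11.22 and 11.29 at 0 hr, 11.69 and 11.31 at 2 hr, 11.54 and 11.01 at 4 hr, 10.99 and 10.85 at 12 hr, and 10.69 and 10.80 at 24 hr. For Mcm7 the late arrays also lay below all 6 earlier arrays, though 12 hr replicate 1 was close to 4 hr replicate 2. In the fit without the 2 and 4 hr arrays all 6 subunits were called lower at both late times, with the highest adjusted p for Mcm7 (0.0263 and 0.0047).

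**Figure D3:**
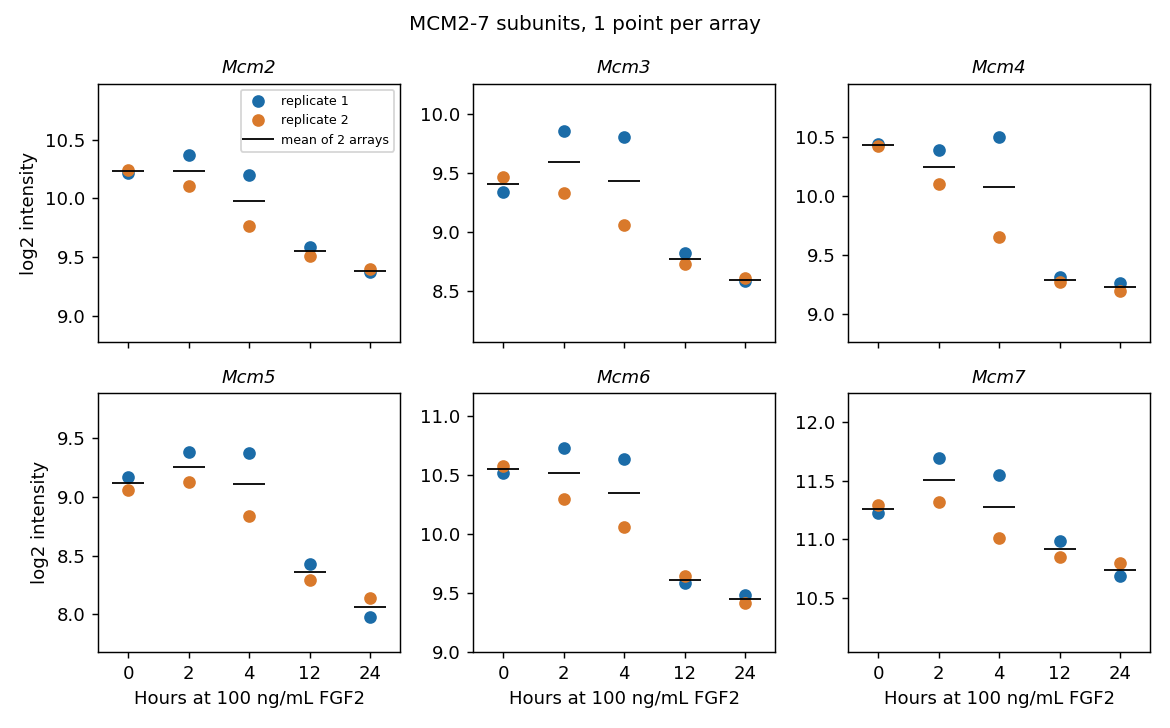
Log2 intensity of the 6 MCM2-7 subunits against hours at 100 ng/mL FGF2 (categories, not to scale in time), 1 point per array and a bar for the mean of the 2 arrays. At 2 and 4 hr replicate 1 lies above replicate 2 in every panel, and the 12 and 24 hr points lie below all others.

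The genes that activate the loaded helicase were not called at 12 or 24 hr in the fit to all arrays. At 24 hr Gins1 stood at -0.66, Cdc45 at -0.54, Mcm10 at -0.54 and Gins3 at -0.46 (adjusted p = 0.0682, 0.14, 0.13 and 0.12), while Gins4 stood at 0.10. Without the 2 and 4 hr arrays Cdc45, Mcm10 and Gins3 were called lower at both late times and Gins1 at 24 hr (adjusted p = 0.0019). Cdc45 has 3 further probe sets, of which 2 stood at -0.67 and -0.75 at 24 hr and the dimmest at 0.18. The further probe set of Mcm10 stood at -0.08 at 12 hr and -0.70 at 24 hr.

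Among the polymerases, 4 of 7 fell at each late time, and these were the initiating primase genes and Pola1 together with Pole, the catalytic subunit of the leading strand polymerase. Prim1, the catalytic primase subunit that makes the RNA primers, read 10.97 and 11.04 at 0 hr, 11.13 and 10.72 at 2 hr, 10.92 and 10.30 at 4 hr, 9.998 and 9.76 at 12 hr, and 10.10 and 10.38 at 24 hr. It was lowest at 12 hr, and replicate 2 of 24 hr overlapped the 4 hr arrays. The log2 change was -1.12 at 12 hr and -0.77 at 24 hr (SE 0.21, adjusted p = 0.0067 and 0.0345). Pole read 7.88 and 8.01 at 0 hr, 8.38 and 7.79 at 2 hr, 8.12 and 7.37 at 4 hr, 7.13 and 6.88 at 12 hr, and 6.59 and 6.94 at 24 hr. All of its late arrays lay below the earlier ones, with changes of -0.94 and -1.18 (SE 0.27, adjusted p = 0.0386 and 0.0146).

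Pola1, the polymerase alpha subunit that extends the primers, fell by 0.71 and 0.82 on the log2 scale at 12 and 24 hr, and its partner Prim2 by 0.56 and 0.50. The other polymerase alpha subunit, Pola2, stood at -0.38 and -0.54 and was not called in the fit to all arrays. Nor were the 2 genes of the lagging strand polymerase delta. Its catalytic subunit Pold1 stood at -0.20 and -0.38 (adjusted p = 0.68 and 0.38). The accessory subunit Pold2 stood at 0.35 and 0.22 (adjusted p = 0.11 and 0.32). Without the 2 and 4 hr arrays Pola2 was called lower at both late times (limma adjusted p = 0.0232 and 0.0054). That fit called Pold1 lower at 24 hr (adjusted p = 0.0234) and Pold2 higher at 12 hr. The polymerase genes were not tested against each other. The lowest level of Pold1 was at 4 hr replicate 2, at 8.28 against 9.28 and 9.40 at 0 hr.

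None of the 6 clamp and clamp loader genes was called at 12 or 24 hr. Pcna, the sliding clamp, stood at -0.23 and -0.40 (adjusted p = 0.35 and 0.0924), with the late arrays between 12.23 and 12.44 against 12.64 and 12.66 at 0 hr. Rfc1, the large subunit of the loader, read 9.93 and 9.96 at 0 hr, 9.97 and 9.77 at 2 hr, 9.64 and 9.60 at 4 hr, 9.68 and 9.68 at 12 hr, and 9.85 and 9.81 at 24 hr. It was lowest at 4 hr and, in the fit to all arrays, was called against 0 hr at that time alone, at -0.33 (SE 0.09, adjusted p = 0.0310). Its 2 further probe sets fell at 4 hr too, by 0.46 and 0.59 on the log2 scale. At 24 hr Rfc1 stood at -0.12, Rfc2 at -0.49, Rfc3 at -0.12, Rfc4 at -0.23 and Rfc5 at -0.45. In the fit without the 2 and 4 hr arrays Rfc1, Rfc2, Rfc4 and Rfc5 were called lower at 12 hr (adjusted p = 0.0332 for Rfc1) and Pcna, Rfc2 and Rfc5 at 24 hr.

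The subunits of RPA, which coats single-stranded DNA, did not move alike. Rpa1, the large subunit, fell by 0.58 on the log2 scale at 24 hr (SE 0.16, adjusted p = 0.0328), while Rpa2 stood at -0.09 and Rpa3 at 0.11. Of the genes that finish Okazaki fragments, the ligase gene Lig1 fell by 0.58 at 12 hr and by 0.85 at 24 hr (SE 0.17, adjusted p = 0.0413 and 0.0076). The flap nuclease gene Fen1 stood at -0.23 and -0.44 (adjusted p = 0.52 and 0.18). A further probe set of Lig1 was already lower at 2 and 4 hr, at -0.42 and -0.77, where the brightest stood at -0.02 and -0.10.

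Of the genes that supply deoxynucleotides, Rrm1, the large subunit of ribonucleotide reductase, fell by 0.92 at 12 hr and by 0.82 at 24 hr on the log2 scale (SE 0.20, adjusted p = 0.0120 and 0.0187). The small subunit Rrm2 can be read only together with Rrm2l1. The brighter of the shared probe sets read 10.62 and 10.69 at 0 hr, 11.96 and 11.09 at 2 hr, 11.66 and 10.81 at 4 hr, 10.03 and 9.74 at 12 hr, and 9.59 and 10.002 at 24 hr. Its 2 and 4 hr arrays lay above and its 12 and 24 hr arrays below both 0 hr arrays, with no call against 0 hr at any time (log2 change 0.87, 0.57, -0.77 and -0.86, SE 0.33). Tyms, thymidylate synthase, stood at -0.51 and -0.10 at the late times, and Tk1, the thymidine kinase of the salvage route, at -0.37 and -0.48.

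Among the genes of G1/S control, Cdk2 and E2f1 were called at different times in the fit to all arrays. Cdk2, the kinase partner of cyclin E, read 9.17 and 9.28 at 0 hr, 9.84 and 9.34 at 2 hr, 9.63 and 9.26 at 4 hr, 8.54 and 8.69 at 12 hr, and 8.20 and 7.97 at 24 hr. The late arrays lay below all earlier ones and the 24 hr arrays below the 12 hr arrays. The log2 change was -0.61 at 12 hr (SE 0.18, adjusted p = 0.0469) and -1.14 at 24 hr (adjusted p = 0.0028), and a further probe set fell by 0.76 and 1.29.

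E2f1, the activating E2F factor, read 8.97 and 8.97 at 0 hr, 8.73 and 8.17 at 2 hr, 8.35 and 7.60 at 4 hr, 8.44 and 8.35 at 12 hr, and 8.37 and 8.24 at 24 hr. Its lowest array was 4 hr replicate 2, 0.75 below replicate 1. The change was -0.99 at 4 hr (SE 0.24, adjusted p = 0.0171), -0.58 at 12 hr and -0.67 at 24 hr (adjusted p = 0.14 and 0.0883). The cyclin E genes were not called in the fit to all arrays. Ccne1 stood at 0.24 and 0.19 at the late times and Ccne2 at -0.78 and -0.56 (adjusted p = 0.0814 and 0.20). A further, dimmer probe set of Ccne2 stood at -0.19 and -0.18. Without the 2 and 4 hr arrays Cdk2, E2f1 and Ccne2 were called lower at both late times. The limma adjusted p was 0.0024 and 0.0013 for E2f1 and 0.0083 and 0.0313 for Ccne2, while Ccne1 was not called. Of the chromatin assembly factor genes, which lay histones on new DNA, Chaf1b fell by 0.73 and 0.72 (SE 0.15, adjusted p = 0.0086 and 0.0090), and Chaf1a stood at -0.46 and -0.68 (adjusted p = 0.21 and 0.0640).

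At 2 hr none of the 41 genes was called (1 at an unadjusted p under 0.05 in limma, Cdt1, and 1 by the methods' analysis of variance, Orc1), against 9.87% of all genes called lower and 9.51% higher. Without either 4 hr array Cdt1 and Rfc5 were called lower at 2 hr, and a further probe set of Tk1 was called higher, at 0.49. At 4 hr 3 were called lower (E2f1, Cdt1 and Rfc1) and none higher, against 13.9% and 13.5%, so that the share of replication genes called, 7.32%, was below that of all genes. The 4 hr count was 0 without either 0 hr array, 13 lower without 4 hr replicate 1, and none lower with 2 higher (Gins1 at 0.62 and Rpa3 at 0.42) without 4 hr replicate 2. Without either 12 hr array E2f1 alone kept its call. With the Actb ratio as a covariate 14 were called higher and none lower at 2 hr, and 12 higher and 1 lower at 4 hr. For that fit and those without 1 array, the share of all genes called was not computed.

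The replicate arrays of 2 and 4 hr stood apart for these genes. Replicate 1 was higher than replicate 2 for 40 of the 41 genes at 2 hr and for 41 of 41 at 4 hr, with median log2 differences of 0.38 and 0.62. Over all genes replicate 1 was higher for 54.7% and 53.9%, with medians of 0.02 and 0.02. The split was not particular to these genes. At 4 hr replicate 1 was higher for 24 of 28 further fork and origin genes, described below. It was also higher for 14 of 14 S phase supply and chromatin genes and 16 of 17 further E2F and pocket protein genes. At 2 hr these counts were 21, 11 and 11. For the G2 and mitosis genes they were 12 of 23 at 2 hr and 21 of 23 at 4 hr. At 0, 12 and 24 hr replicate 1 was higher for 14, 30 and 17 of the 41 genes, with medians of -0.03, 0.07 and -0.03. Orc1 differed most at 4 hr, by 1.08, and Ccne1 most at 2 hr, by 0.87. The log2 Actb 5'/3' ratio, a measure of RNA integrity and amplification, was -1.68 and -2.13 on replicates 1 and 2 of 2 hr and -1.37 and -2.08 at 4 hr. It was -1.12 and -1.21 at 0 hr, -1.30 and -1.43 at 12 hr, and -1.75 and -1.88 at 24 hr. The part of the ratio in the replicate difference was not tested.

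**Figure D4:**
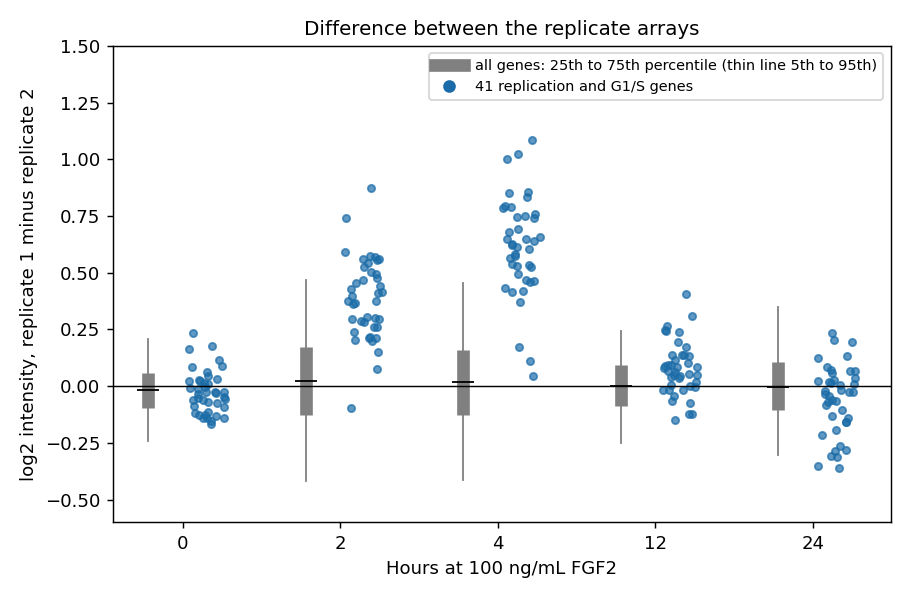
Log2 intensity of replicate 1 minus replicate 2 at each time point (x axis, hours at 100 ng/mL FGF2), with a point for each of the 41 genes and, beside them, the 25th to 75th percentile of all 14217 genes (bar), their 5th to 95th percentile (line) and median. At 2 and 4 hr nearly all points lie above 0, with medians of 0.38 and 0.62.

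Between the time points of a phase no replication gene was called. At 4 against 2 hr none was called in limma (1 at an unadjusted p under 0.05, Rfc1, none by the methods' analysis of variance, and 1 higher, Rpa3 at 0.65, without 4 hr replicate 2), against 1.84% of all genes lower and 2.82% higher. The median was -0.17, beside -0.01 over all genes. Same-numbered arrays read lower at 4 than at 2 hr for 26 of the 41 genes in replicate 1 and 39 in replicate 2. Over all genes the shares were 51.8% and 51.6%. With the Actb covariate 5 were called lower (Orc6, Cdc45, Pola1, Pold1 and E2f1). At 24 against 12 hr none was called (1 at an unadjusted p under 0.05, Cdk2 at -0.53, and 6 by the methods' analysis of variance), against 2.91% lower and 3% higher. The fit without the 2 and 4 hr arrays called Cdk2 and Gins1 (-0.38) lower and none higher between 12 and 24 hr, against 5.71% and 6.15%.

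The mean of the 12 and 24 hr arrays was also set against that of the 2 and 4 hr arrays, with 4 arrays in each. Replication genes were lower late, on the same late arrays as in the comparisons with 0 hr. Same-numbered arrays of 2 and 4 hr deviated alike (correlation 0.327), and the fit treats them as independent. Of the 41 genes 23 were called lower and none higher, against 21.1% and 23.5% of all genes, and the median was -0.44 beside 0.03 over all genes. By role these were all 6 MCM2-7 subunits, 4 of 5 genes of helicase activation, 2 of 3 of origin loading, 3 of 7 polymerase genes, Pcna, Lig1, Rrm1, Tk1, Ccne2, Cdk2 and both chromatin assembly genes. Cdk2 differed most, at -1.16 (SE 0.13, adjusted p = 0.000167), followed by Pole at -1.03 (SE 0.19, adjusted p = 0.0025) and Mcm5 at -0.97 (SE 0.12, adjusted p = 0.0003). Mcm4 and Mcm6 each stood at -0.90. E2f1 stood at 0.14 and Pold2 at 0.26 (adjusted p = 0.0535). Further probe sets of Orc6 were called lower, at -0.48 and -0.76, where the brightest stood at -0.41, a further one of Lig1 stood at 0.05 and was not called, and those of Rfc1 were called higher, at 0.39 and 0.23, where the brightest stood at 0.01. The arrays of the phases carry serial numbers apart from each other, so number group and phase cannot be told apart here.

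Other genes of the same processes were described with lists drawn up beside that of the members, also with earlier results of these data known. The shares of all genes called at each time, given above, are their background too, and several of their counts lie near it. Of 28 further replication fork and origin genes measured, 12 hr brought 6 falls and 2 rises and 24 hr 8 falls and 3 rises, with medians of -0.25 and -0.25. The largest falls were those of the fork protection gene Timeless (-1.42) and the clamp unloading gene Atad5 (-1.33) at 12 hr and of Dscc1 (-1.16) at 24 hr, and the largest rises were Rnaseh2b (0.79) and Pold4 (0.70) at 24 hr and Rnaseh2c (0.55) at 12 hr. Of 14 genes of deoxynucleotide supply and S phase chromatin, there were 4 falls and 1 rise at 12 hr, against 3 falls and 1 rise at 24 hr. The chromatin remodeller Hells fell by 1.01 at 12 hr, Uhrf1 and Dnmt1, which copy DNA methylation, differed between late and early phase by -0.94 and -0.75, Shmt1 rose by 1.15 at 24 hr, and Nme1 was 0.40 higher at 24 than at 12 hr.

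Of 17 further E2F and pocket protein genes, 3 rose and 2 fell at 2 hr, 3 and 3 at 4 hr, 1 and 2 at 12 hr, and 1 and 4 at 24 hr, with the 12 hr counts at or below the 11.7% of all genes called higher and 11.9% called lower. The repressor E2F genes E2f7 and E2f8 rose at 2 hr, by 1.02 and 0.88 on the log2 scale, and differed between late and early phase by -1.36 and -1.23. Lin54, a DNA-binding subunit of the MuvB core, fell by 1.41 at 12 hr, and Rbl2, the pocket protein of resting cells, rose by 0.77 at 24 hr. Of 12 CDK inhibitor and D cyclin genes, 4 were higher and 4 lower at 12 hr, and 4 were higher and 3 lower at 24 hr. The inhibitor genes Cdkn2b and Cdkn2a rose by 3.59 and 1.73 at 12 hr. Cdkn2a was dim, at 4.06 and 3.86 at 0 hr and 5.63 and 5.75 at 12 hr, so the size of its rise is uncertain. The macrophage marker Ptprc, at percentile 9.14, read 4.05 and 3.84 at 0 hr. Cdkn1a was 1.27 higher in the late phase than in the early. Ccnd3 fell by 1.19 and Cdkn2c by 0.93 at 12 hr, and Ccnd1 fell by 1.07 at 4 hr.

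The G2 and mitosis genes had most of their calls against 0 hr at 2 and 4 hr. Of 23 measured, 8 rose at 2 hr, 10 at 4 hr, none at 12 hr and 2 at 24 hr, and none fell, with medians of 0.64, 0.66, 0.08 and 0.25 against -0.00, -0.12, -0.46 and -0.54 for the replication genes. The difference between the lists was not tested. The mitotic kinase gene Plk1 rose by 1.07 at 4 hr, Foxm1, a factor that drives mitotic genes, by 1.01 at 2 hr and cyclin B1, Ccnb1, by 1.00 at 4 hr. In the late against the early phase 16 of the 23 were lower, with Ccna2 at -1.06, Mki67 at -0.87 and Foxm1 at -0.84.

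**Figure D5:**
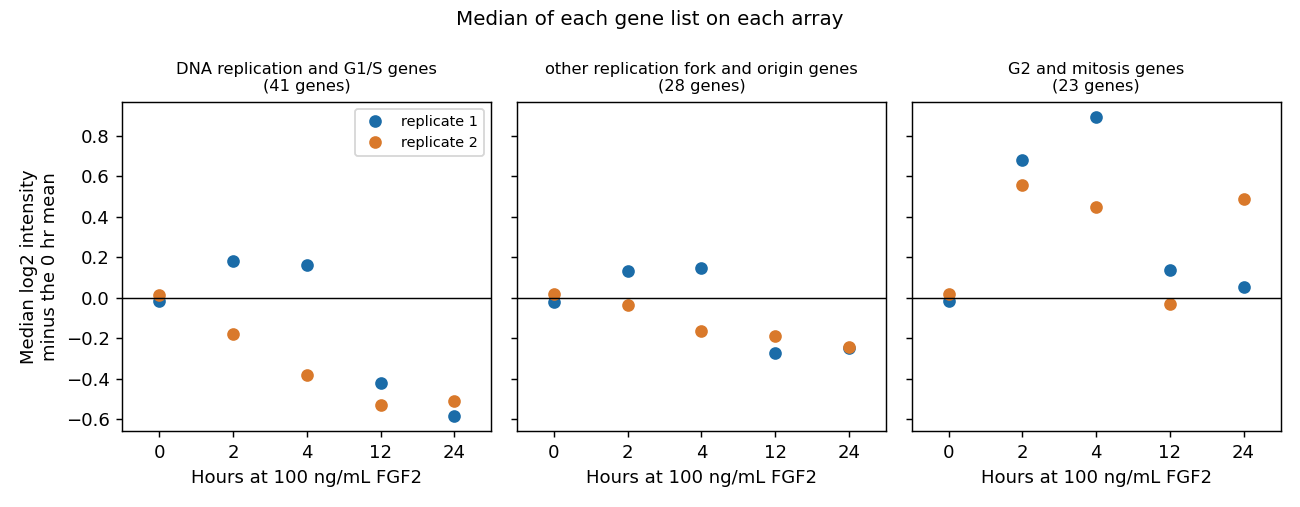
Median log2 intensity minus the 0 hr mean on each array (1 point per array, replicates in 2 colours) against hours at 100 ng/mL FGF2, for the 41 DNA replication and G1/S genes, 28 other replication fork and origin genes and 23 G2 and mitosis genes. The first list lies at -0.42 to -0.58 at 12 and 24 hr, and the mitosis list at 0.45 to 0.89 at 2 and 4 hr.

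The promoter letters were also set beside the values of these lists. E2F letters stood in 15 of 30 promoters (50.0%) of the further fork and origin genes and in 1 of 19 (5.3%) of the G2 and mitosis genes, beside 38.9% for the replication genes. The CHR letters TTTGAA and TTCGAA, searched on both strands, stood in 5 of 36 replication gene promoters (13.9%), in 13 of 19 (68.4%) of the G2 and mitosis promoters and in 19.6% of all protein-coding promoters. The CCAAT letters bound by NF-Y were found in 23 of 36 (63.9%) against 39.8%, and the GC box letters GGGCGG in 24 of 36 (66.7%) against 44.1%, again on both strands. Of the 35 measured genes with a promoter entry, the 14 with E2F letters had a median log2 change of -0.61 at 12 hr and -0.82 at 24 hr, with 7 and 8 called lower. The 21 without had medians of -0.44 and -0.49, with 5 and 6 called lower. This difference was not tested, and the genes without the letters included Cdk2, Prim1 and Chaf1b.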

How the data were processed

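Gene expression was measured on 10 Affymetrix arrays, 2 per time point, from 50 ng of total RNA that was amplified to cDNA. The deposited values are linear intensity values after the authors' RMA normalization (version not given in the sources used here), and log2 was taken without any other normalization. The array type in the paper's text differs from the one its array names and the platform give.

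With limma 3.58.1 (R 4.3.3), a linear model with 1 mean per time was fitted to all 10 arrays for each of 31042 probe sets, 57 array controls being left out. The residual degrees of freedom were 5, and variances were moderated by eBayes. Calls needed an adjusted p under 0.05 (Benjamini-Hochberg). Gene symbols came from the platform annotation: 20826 probe sets carry 1 symbol, 436 several and 9780 none. The number of arrays limits the precision. The fit was tested on simulated data.

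The members and all lists were chosen with earlier results of these data known. Per-array values are given for called members among the 5 largest rises or falls of a comparison and for the MCM2-7 family, and of each further list the 3 largest called rises and falls. Positions and promoters come from RefSeq (GRCr8). Plots used matplotlib 3.10.9 under Python 3.11.15. Unadjusted p, the methods' analysis of variance, other normalizations, filters, weights, covariates, probe set choices, a replicate block and the omission of each array were tried as alternatives.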

Additional observations from a re-analysis of the deposited data

Results flagged for a closer look

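The change from 0 hr differed between the early phase (2 and 4 hr) and the late phase (12 and 24 hr) for 23 of the 41 genes, all lower in the late phase by the limma contrast of the phases (adjusted p under 0.05). The 5 with the largest differences were Cdk2 (-1.16), Pole (-1.03), Mcm5 (-0.97), Mcm4 (-0.90) and Mcm6 (-0.90) on the log2 scale. The arrays of the phases carry serial numbers apart from each other, so number group and phase cannot be told apart in this contrast.

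The probe sets shared by Rrm2 and Rrm2l1 lie outside the 41 genes and were called lower in the late phase against the early, at -1.54 (the brighter, SE 0.23, limma adjusted p = 0.0009) and -2.08 (the dimmer, SE 0.31, adjusted p = 0.0009). The latter read 7.87 and 8.06 at 0 hr, 9.49 and 8.41 at 2 hr, 9.42 and 8.08 at 4 hr, 7.14 and 6.76 at 12 hr, and 6.80 and 6.37 at 24 hr. No group has 4 or more arrays, so no time point was examined for a stray array.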

How the results depend on the processing

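Of 56 results for a called gene, none changed sign under up to 24 alternatives, while 191 of the values lost their call and 1127 kept it. Alternatives that change only the test, or omit arrays of other times, leave the log2 change as it was. Its sign could not change under them. Of the counts of called genes, those at an unadjusted p under 0.05 were 1 at 2 hr, 6 at 4 hr, 27 at 24 hr, 1 for 4 against 2 hr and 1 for 24 against 12 hr. The methods' analysis of variance gave 1 at 2 hr, 1 at 4 hr, 31 at 12 hr (2 higher), 30 at 24 hr and 6 for 24 against 12 hr. A fit of only the groups compared gave 0 at 4 hr, 33 at 12 hr, 31 at 24 hr and 1 for 24 against 12 hr. Array weights, which were 0.575 and 0.577 for the 2 and 4 hr arrays and 1.07 to 1.81 for the others, gave 28 at 12 hr, 28 at 24 hr and 1 for 24 against 12 hr. The Actb ratio as a covariate gave 14 at 2 hr (all higher), 13 at 4 hr (12 higher), 21 at 12 hr (2 higher) and 9 at 24 hr (3 higher). It gave 5 for 4 against 2 hr, 2 for 24 against 12 hr (both higher) and 32 for the late against the early phase (all lower). Without the 2 and 4 hr arrays, chosen after seeing the data, the counts were 32 at 12 hr, 31 at 24 hr and 2 for 24 against 12 hr. Apart from the fit without the 2 and 4 hr arrays, the share of all genes called was not computed for any alternative. A change in the counts can thus not be told apart from a change over all genes. The cause of these differences was not tested.

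Leaving out 1 array at a time gave 0 to 2 calls at 2 hr, 0 to 13 at 4 hr, 1 to 21 at 12 hr, 6 to 25 at 24 hr, 0 to 1 for 4 against 2 hr, 0 for 24 against 12 hr, and 17 to 29 for the late against the early phase. A time point left with 1 array was assumed to vary like the others. With the replicate number as a block, in place of the unpaired fit, the counts were 0 at 2 hr, 3 at 4 hr, 13 at 12 hr, 18 at 24 hr, 0 and 0 within the phases and 24 between them, so no count moved by over 1.5 times. Deviations of same-numbered arrays correlated at 0.327 between 2 and 4 hr and at -0.147 to -0.003 between the other times. The numbers were thus not taken to pair the samples over all times. Between 2 and 4 hr same-numbered arrays deviated alike, and no fit paired them alone. The contrasts of 4 against 2 hr and of the phases treat these arrays as independent. Quantile normalization, median centring, another variance prior, the filter on dim probe sets, a fold change minimum and other choices of probe set kept every count within 1.5 times. With 2 arrays per time point, differences of the size of the replicate spread at 2 and 4 hr could not be resolved.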

Other observations

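Between the 24 hr arrays the G2 and mitosis genes differed in 1 direction, while the replication genes differed in both, by -0.36 (Ccne2) to 0.23 (Cdk2) with a median of -0.03. Replicate 1 was lower than replicate 2 at 24 hr for all 23 of them, with a median log2 difference of -0.56, and at 4 hr it was higher for 21, with a median of 0.45. At 24 hr their median lay 0.05 above the 0 hr mean on replicate 1 and 0.49 above it on replicate 2, so that their level at 24 hr rests on which array is read. At 12 hr the arrays gave 0.14 and -0.03.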
